A study of Mus musculus with 18 samples.

Results

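The comparison described here is the early ovulatory response of mural granulosa cells, the cells that line the wall of the ovarian follicle. It sets 3 libraries of mural cells taken 4 h after human chorionic gonadotropin (hCG) was given against 3 libraries taken at 0 h, 6 of the 18 libraries of a mouse study. The groups were found by the titles and column names of the libraries, and no measured value entered that choice. The study also holds mural cells of 12 h and cumulus cells, which surround the oocyte, at 0, 4 and 12 h, with 3 libraries each. Both mural groups are ovary samples of the WT genotype, labelled with the treatments hCG 0h and hCG 4h. The sources used here do not give strain, age, any priming before hCG, the number of animals behind a library or the hour of collection. No label states that each library of a group comes from animals of its own. The p-values therefore reflect only the variation among the 18 libraries of the study, and that may be technical. The table held counts of uniquely mapped reads for 41325 entries, of which 19941 passed a filter on low counts and were tested.

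hCG acts on the receptor of luteinizing hormone (LH). In mural cells this receptor couples to cyclic AMP (cAMP) and protein kinase A, and the cells then release growth factors of the EGF family that act on their neighbours and on the cumulus. Over the hours before ovulation granulosa cells stop dividing, turn from estrogen to progesterone synthesis, lower the cyclic GMP (cGMP) that holds the oocyte in meiotic arrest, and remodel the follicle wall.

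The 6 libraries held between 32211630 and 47919446 counts. Levels are given as CPM, counts brought to one common library size with scaled library totals, in the order of replicates 1 to 3, and CPM are not corrected for gene length, so they are not compared between genes. Changes are log2 fold changes of 4 h against 0 h ± standard error (SE; n = 3 libraries per group), and levels with an error are means ± standard deviation (SD, n = 3). A gene is called where the adjusted p of edgeR's quasi-likelihood test, corrected by the Benjamini-Hochberg method over all genes tested, is under 0.05. The fit covers all 18 libraries, so SE and p-values also carry the spread of the cumulus and 12 h libraries. Some genes not called in it were called in fits of mural libraries only, such as Lhcgr below. The first principal component of the 6 libraries took 78.3% of the variance and put the libraries of 0 h between -91.3 and -86.8 and those of 4 h between 82.7 and 103.2, with replicate 2 of 4 h farthest out.

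The libraries carried the granulosa label by their markers. The 10 granulosa markers summed to 19052, 17413 and 15629 CPM at 0 h and to 12551, 14983 and 13043 CPM at 4 h, and all were detected. Without Inha the other 9 summed to 7818, 7473 and 6573 CPM at 0 h and to 4764, 5291 and 5010 CPM at 4 h. Of the 10 markers, 7 were called lower and none higher. Markers of other ovarian cells were also present, and their part in the results below was not tested. Sums are not compared between cell types, since CPM are not compared between genes. The 15 oocyte markers summed to 162, 271 and 664 CPM at 0 h and to 186, 281 and 255 CPM at 4 h, with none called in either direction. The 6 red blood cell markers were all called higher, at 87.7, 108.6 and 145 CPM at 0 h and 665, 449 and 699.5 CPM at 4 h. The 8 theca markers, with 1 higher (Star) and 4 lower, summed to 526, 506 and 611 CPM at 0 h and to 2911, 4157 and 2988 CPM at 4 h. Star is a gene that granulosa cells also turn on. Without Star the theca markers summed to 510.4, 483 and 585 CPM at 0 h and to 244, 223 and 249 CPM at 4 h, and Cyp17a1, the theca enzyme of androgen synthesis, was called lower, from 101, 106 and 136 CPM to 23.9, 25.9 and 31.6 CPM. Of 5 neutrophil markers tested 4 were called higher, at sums of 0.195, 0.453 and 0.787 CPM at 0 h and 2.50, 4.69 and 6.14 CPM at 4 h, and Ly6g, which defines the type, had no count in any of the 6 libraries. The 9 macrophage markers, at 18.7 to 36.9 CPM at 0 h and 34.0 to 43.6 CPM at 4 h, had none called. Of 8 endothelial markers 1, Kdr, was higher (38.5 to 56.0 CPM and 61.0 to 73.3 CPM in sum), and of 9 stromal and smooth muscle markers 2 were higher and 1 lower (503 to 983 CPM and 522 to 744 CPM). The 8 surface epithelium markers, with 2 higher, and the 4 lymphocyte markers tested, with 1 higher, summed to at most 103.6 and 2.32 CPM. Of 5 cumulus markers 2 were higher and 1 lower, at 1095 to 1302 CPM and 2499 to 2796 CPM in sum. In libraries of whole samples, fewer cells of a type and less RNA per cell cannot be told apart.

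Within 4 h of hCG, 8991 genes were called, which is 45.1% of those tested. Of these, 4549 were higher (22.8%) and 4442 were lower (22.3%). Strong rises outnumbered strong falls. At least 8-fold rises numbered 686 and at least 8-fold falls 197, and past 64-fold there were 143 rises and 19 falls. The split depends on scaling: with plain library totals in place of the trimmed mean of M values, the median change of all genes moved from -0.06 to -0.38, and 2793 genes were called higher and 6821 lower. Changes below are relative to the scaling by the trimmed mean of M values, and a list of genes is given with its counts under library totals where these differ much. Each list is to be read against the 22.8% higher, 22.3% lower and median of -0.06 of all genes tested. For every called gene whose libraries are given one by one, all 3 levels of one time lay above all 3 of the other. The groups were apart in this way for 61.7% of all genes tested. Only 82 of the 8991 called genes overlapped, so a lack of overlap sets few called genes apart. Just inside the threshold lay Snap23 at -0.21 ± 0.08 (adjusted p = 0.0499) and just outside it Blcap at 0.32 ± 0.13 (adjusted p = 0.0501).

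**Figure D1:**
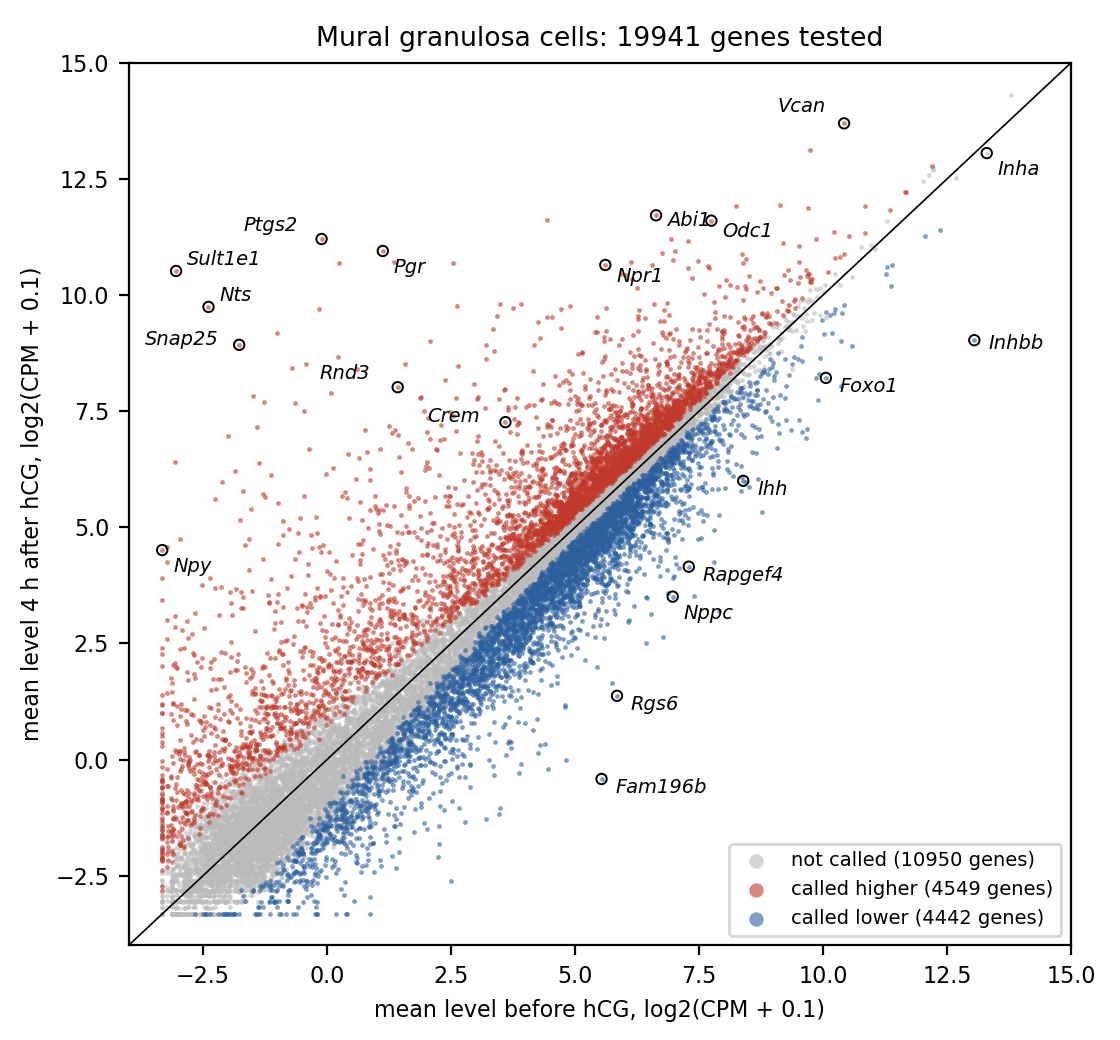
Mean level of each of 19941 genes in mural granulosa cells before hCG (horizontal axis) and 4 h after it (vertical axis), both as log2(CPM + 0.1), where points are genes and the line marks equal levels. The 4549 genes called higher (red) reach farther from the line than the 4442 called lower (blue), and the genes circled are ones given in the text.

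The change reached a large part of the RNA pool. Genes called higher held 30.4, 30.6 and 30.6% of the counts at 0 h and 52.9, 56.2 and 52.7% at 4 h. Genes called lower went from 29.3, 29.1 and 28.4% to 12.8, 11 and 12.3%. The 686 genes with at least 8-fold rises took 0.805, 0.834 and 0.799% of the counts before hCG and 10.4, 12.3 and 10.4% after it. Most of them were almost silent at 0 h: 442 of the 686 (64.4%) had a mean below 1 CPM, beside 28.8% of all genes tested. At 4 h 276 of them (40.2%) reached 20 CPM, near the 38.8% of all genes tested. By annotation 500 of them (72.9%) are protein-coding and 88 (12.8%) are long intergenic RNAs, beside 80.6% and 7.09% of all genes tested. The 4 h libraries did not respond alike. Replicate 2 had the highest level for 447 of the 686 strong rises and the lowest for 2831 of the 4442 genes called lower, and it is also the 4 h library farthest from the 0 h libraries. Without it 665 strong rises and 177 strong falls were called, a check chosen after the data were seen. These shares describe genes chosen by the same values and are not tested.

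**Figure D2:**
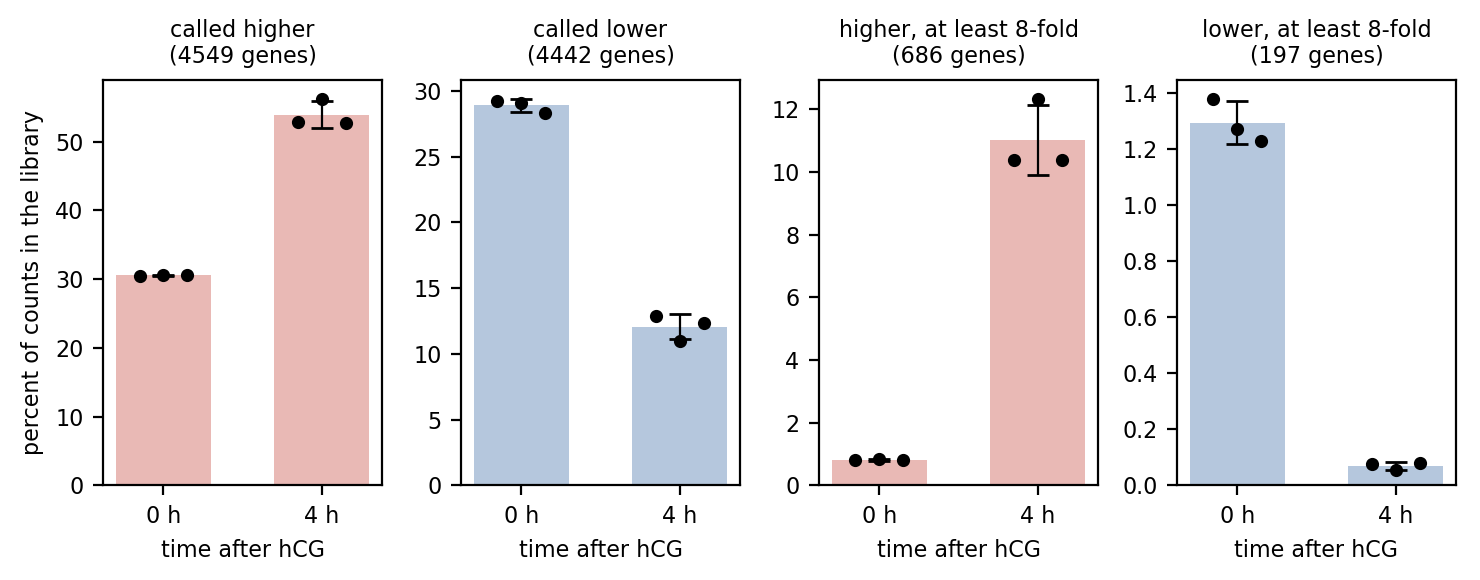
Percent of all counts in a library (vertical axes, each starting at 0) taken by 4 sets of genes at 0 and 4 h after hCG. Points are single libraries, bars are means and error bars are SD (n = 3). The genes with at least 8-fold rises went from 0.813% to 11% of the counts on average, and replicate 2 of 4 h was the highest.

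The steepest rises included genes of hormone inactivation, peptide release and the ovulatory program. Sult1e1 (chromosome 5, 87575969 to 87591594), which sulfates and so inactivates estrogens, had 3 counts over the 0 h libraries and reached 1219, 1940.0 and 1236 CPM at 4 h, a ratio of 66652 with a 95% exact interval of 22807 to 323205 that covers counting error only. Npy, Sprr2g, Ptgs2os2 and Vgf had no count at 0 h. Against a floor of 3 counts over that group they were at least 1033-fold, 684-fold, 488-fold and 235-fold higher. Ptgs2os2 is a long intergenic RNA that the annotation places downstream of Ptgs2 on the opposite strand, and it stood at 9.05, 13.1 and 9.93 CPM at 4 h. Other genes among the 20 largest rises with at least 20 CPM were Msc, a transcription repressor (9.69 ± 0.63), Arc, an activity-induced gene of neurons (8.86 ± 0.63), Sema4f, a semaphorin (8.63 ± 0.32), Slc5a7, the choline transporter (8.56 ± 0.40), and Ptprn, a protein of secretory granules (8.21 ± 0.27). The adjusted p of the genes in this paragraph were at most 4.84e-07. The groups overlapped for none of these genes, which the rule for the 20 largest rises required in advance.

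The largest gains in counts were in genes already present before hCG. Vcan, the matrix proteoglycan versican, stood at 1527, 1356 and 1237 CPM at 0 h and 13088, 13830.0 and 12836 CPM at 4 h. Ephx2, the soluble epoxide hydrolase, stood at 939, 894 and 712 CPM at 0 h and 8408, 10132 and 8283 CPM at 4 h. Every 4 h library lay above every 0 h library for both. Abi1 (chromosome 2, 22940073 to 23040241), an adaptor of actin remodelling, rose 33.9-fold, from 97.7, 104 and 95.4 CPM to 2834, 4281 and 2963 CPM. Ybx1, which binds RNA and DNA, stood at 614, 593 and 487 CPM at 0 h and 3643, 4651 and 3445 CPM at 4 h, and Gramd1b, a carrier of cholesterol between membranes, at 828, 866 and 796 CPM at 0 h and 3752, 4053 and 3402 CPM at 4 h. The 15 largest gains together went from 1.26% of the counts to 5.86%, and the 15 largest losses from 4.17% to 1.24%.

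Among the losses Inhbb (chromosome 1, 119415465 to 119422248), which encodes the beta B subunit of activin and inhibin, stood apart. It fell from 9708, 8142 and 7573 CPM to 561, 424 and 579 CPM, a log2 change of -4.02 ± 0.27 (adjusted p = 1.18e-09), so that the highest 4 h library lay more than 8-fold below the lowest 0 h library. Gja1, the gap junction protein connexin 43, fell from 5515, 5399.7 and 4829 CPM to 2669, 2816 and 2645 CPM. Other large losses were in Hsd3b1 of steroid synthesis (-0.77 ± 0.18), Prkar2b, a regulatory subunit of protein kinase A (-1.17 ± 0.19), Foxo1, a transcription factor held in check by FSH signalling (-1.84 ± 0.14), and Akr1c14, an aldo-keto reductase (-2.74 ± 0.22). These were called, with adjusted p at most 0.00193. The steepest falls by fold were in genes of low or middling level. Fam196b went from 50.1, 47.5 and 41.1 CPM to 0.666, 0.634 and 0.646 CPM, Rgs6, which speeds the shut-off of G proteins, from 59.9, 62.7 and 49.6 CPM to 2.2, 1.74 and 3.52 CPM, and Jakmip3 from 262, 241 and 216 CPM to 12.6, 4.38 and 10.1 CPM.

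**Figure D3:**
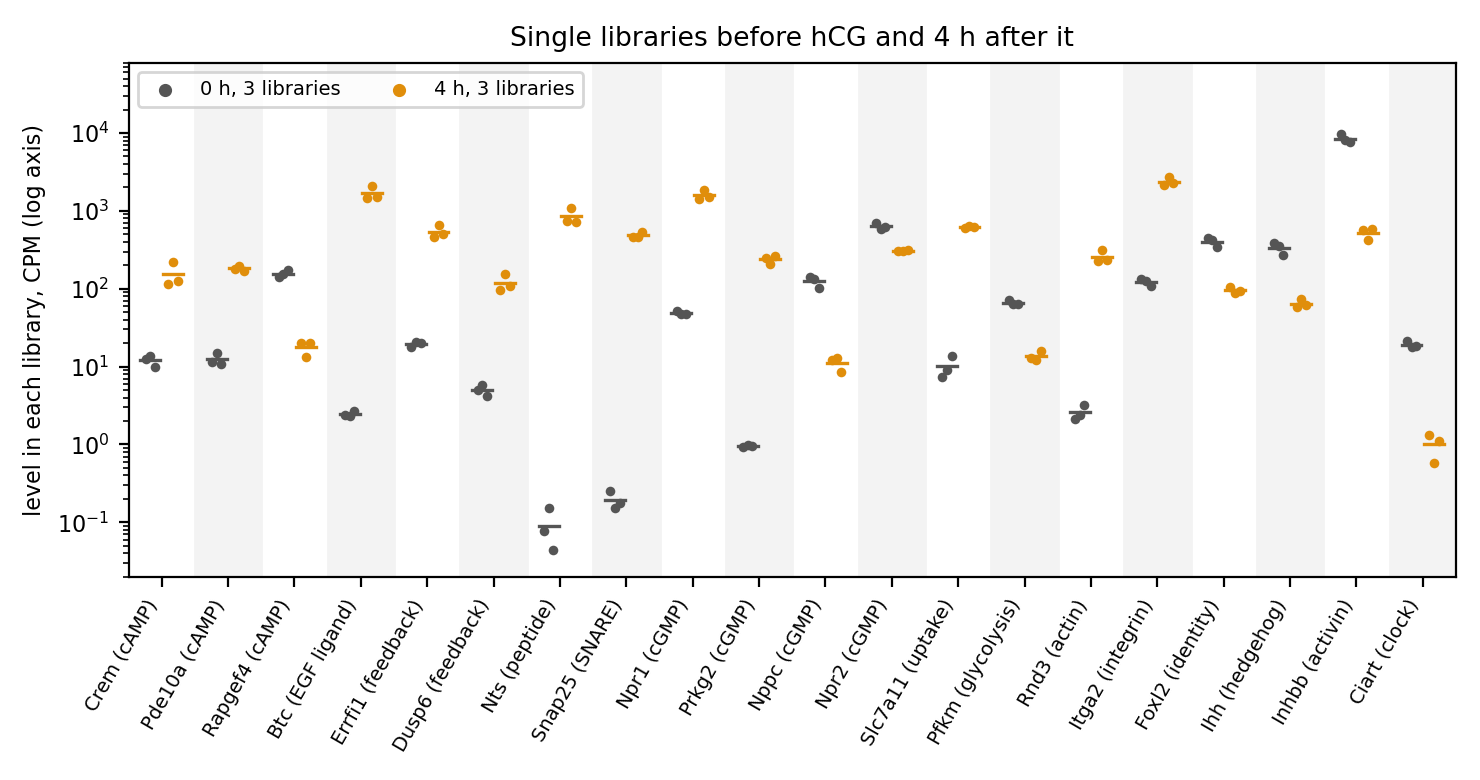
Levels in single libraries (CPM, log axis) of 20 genes with their role in brackets, before hCG (grey, 3 libraries) and 4 h after it (orange, 3 libraries), where short lines are means. For each of these genes the 3 libraries of 4 h lie on one side of the 3 of 0 h, as for Npr1 between 48.7 and 1602 CPM on average or Inhbb between 8474 and 522.

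Genes that carry and limit the cAMP signal were called in both directions. Of 38 tested, 9 were higher and 9 lower, a share of 47.4% called that lies near that of all genes. The median change was 0.04, and with library totals the counts became 8 and 16 and the median -0.30. Lhcgr, the receptor itself, stood at 689.5, 729 and 569 CPM at 0 h and 331, 349.9 and 337 CPM at 4 h and was not called (-0.97 ± 0.40, adjusted p = 0.0574). All 3 levels at 4 h lay under those at 0 h, and 5 alternatives called it lower: library totals (adjusted p = 0.0194), the replicate block (0.0499), limma-voom (0.00431) and edgeR on only the 9 or the 6 mural libraries (7.7e-07 and 6.06e-06). Gnas, the stimulatory G protein, rose (0.99 ± 0.17), while 3 of 7 adenylyl cyclases, which make cAMP, fell and none rose, led by Adcy9 (-1.81 ± 0.12). Of 10 phosphodiesterases, which break cAMP down, 3 rose and 2 fell. Pde10a went from 11.6, 15 and 10.8 CPM to 182, 198 and 171 CPM, Pde4b from 8.0, 8.59 and 7.12 CPM to 54, 97.4 and 68.2 CPM and Pde4d by 1.69 ± 0.15. Pde8a was not called at 129, 119.7 and 103 CPM at 0 h and 124, 154 and 111 CPM at 4 h. Crem, whose inducible product represses cAMP-driven transcription, rose from 12.4, 13.7 and 9.83 CPM to 114, 223 and 124 CPM (3.68 ± 0.28), and Sik1, a kinase that holds back the CREB coactivators, by 2.74 ± 0.31. Rapgef4, the cAMP-gated exchange factor EPAC2, fell from a mean of 157 ± 17.7 CPM to 17.7 ± 3.88 CPM (SD, n = 3; -3.15 ± 0.18). The called genes named here had adjusted p of at most 0.00011.

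All 4 EGF-like ligands that neighbour each other on chromosome 5 rose together. Epgn lies at 91027464 to 91035215, Ereg at 91074622 to 91093646, Areg at 91139599 to 91148432 and Btc at 91357261 to 91402994 (GRCm38, GENCODE M21). Btc stood at 2.38, 2.29 and 2.71 CPM at 0 h and 1473, 2094 and 1488 CPM at 4 h. Ereg stood at 1.01, 0.68 and 0.677 CPM at 0 h and 581, 1275 and 631 CPM at 4 h, and Epgn at 0.137, 0.0504 and 0.262 CPM at 0 h and 95.8, 168 and 113 CPM at 4 h. Areg was the most uneven of the 4 at 4 h, at 245, 681 and 292 CPM against 1.21, 1.31 and 0.699 CPM before. In each case replicate 2 was the highest library at 4 h and every 4 h library lay above those of 0 h. Of the other ligands the neuregulin Nrg3 rose from 0.664, 0.68 and 0.983 CPM to 26, 29.9 and 32 CPM, while Hbegf (-1.55 ± 0.27) and Nrg2 (-1.36 ± 0.34) fell, and so did the receptor gene Egfr (-0.70 ± 0.18). Rhbdf2, which helps the shedding enzyme Adam17 to the cell surface, rose by 2.68 ± 0.11, while Adam17 itself stood at 155, 134 and 144 CPM at 0 h and 160.0, 152 and 152 CPM at 4 h. Over the list of 17 EGF-like signalling genes 6 were higher and 5 lower; its median was 0.10, and -0.22 with library totals.

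The promoters of these ligands are shown because the core letters of the cAMP response element lie in each of the 3 that the table used here holds. These letters are common: 31.1% of all genes tested with a promoter entry hold them, and 29.2% of those with at least 8-fold rises. RefSeq's promoter table (GRCm38.p6) gives 250 bases before to 50 after a start. Printed here are up to 220 bases before the start, 5′ to 3′ on the gene's strand, without bases inside the annotated gene. Capitals mark the core of the cAMP response element (TGACG or its complement CGTCA), the AP-1 letters TGANTCA and the TATA box TATAAA. Areg is on the plus strand at chr5:91139379-91139598, Btc on the minus strand at chr5:91402995-91403214 and Epgn on the plus strand at chr5:91027297-91027463.
Areg: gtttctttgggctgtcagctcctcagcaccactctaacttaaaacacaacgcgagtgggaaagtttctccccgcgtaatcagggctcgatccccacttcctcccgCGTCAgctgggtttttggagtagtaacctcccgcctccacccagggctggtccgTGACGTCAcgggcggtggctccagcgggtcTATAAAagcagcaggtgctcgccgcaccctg
Btc: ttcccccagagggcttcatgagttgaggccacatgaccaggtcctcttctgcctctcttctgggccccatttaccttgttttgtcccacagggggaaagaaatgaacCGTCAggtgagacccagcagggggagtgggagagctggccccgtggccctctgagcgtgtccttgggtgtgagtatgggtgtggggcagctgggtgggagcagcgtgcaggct
Epgn: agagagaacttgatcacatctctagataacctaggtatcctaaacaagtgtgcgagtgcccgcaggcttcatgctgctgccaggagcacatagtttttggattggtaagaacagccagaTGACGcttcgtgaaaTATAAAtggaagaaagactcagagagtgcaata
Areg holds the full element TGACGTCA from -61 to -54, a separate core at -115 and a TATA box at -31, counted back from the RefSeq start. Btc and Epgn hold the core without the full element, at -113 and -101, and Epgn also holds a TATA box at -86.

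Inhibitors that the ERK pathway turns on against itself were higher in most cases. Of 18 tested, 13 were higher and none lower, with a median change of 1.43. Errfi1, which binds and blocks the EGF receptor, went from 17.6, 20.8 and 20.1 CPM to 463, 657 and 502 CPM. Dusp6, a phosphatase of ERK, went from 5.05, 5.77 and 4.2 CPM to 95.9, 154 and 108 CPM, and Spry2 from 14.2, 15.4 and 13.3 CPM to 119, 219.6 and 126 CPM. None of these groups overlapped. Dusp4 (5.64 ± 0.35) and Dusp5 (3.20 ± 0.22) rose as well. Spry4 (0.78 ± 0.59, adjusted p = 0.309) and Lrig1 (0.29 ± 0.13, adjusted p = 0.079) were not called.

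Immediate early transcription factors rose in 18 of 25 cases and none was called lower, with a median of 2.79; with library totals 15 rose. The members of each family moved unequally. Egr3 went from 0.722, 0.453 and 0.765 CPM to 338, 459 and 299.8 CPM and Egr1 rose by 3.41 ± 1.05, while Egr4 was not called (1.10 ± 0.59). The call of Egr1 rests on single libraries: its adjusted p was 0.0885 without replicate 2 of 0 h and 0.0627 without replicate 2 of 4 h. Nr4a3 (5.36 ± 0.48) and Nr4a1 (3.24 ± 0.33) rose more than Nr4a2 (0.64 ± 0.21), though the difference between them was not tested. Nr4a2 was not called with library totals (0.31), nor without replicate 3 of 0 h (adjusted p = 0.0936), replicate 2 of 4 h (0.16) or replicate 3 of 4 h (0.0507). In the AP-1 family Junb (3.95 ± 0.68) and Fosl1 (3.64 ± 0.22) rose. Fos stood at 106, 20.6 and 19.1 CPM at 0 h and 61.2, 131 and 38.3 CPM at 4 h and was not called, nor were Fosb (0.67 ± 1.60), Fosl2 (0.28 ± 0.14) and Jun (0.80 ± 0.65). Klf4 (3.83 ± 0.42), Ier3 (5.36 ± 0.22) and Atf3 (2.91 ± 0.43) were among the other rises.

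Transcription factors tied to ovulation rose in 13 of 19 cases and fell in 3, or 9 and 4 with library totals, with a median of 0.68. Runx1 stood at 22.5, 22.6 and 19.2 CPM at 0 h and 683, 888 and 628 CPM at 4 h, and its relative Runx2 at 4.96, 12.1 and 13.7 CPM at 0 h and 476, 423 and 422 CPM at 4 h. Bhlhe40, a repressor, rose by 3.16 ± 0.18, Cebpa by 2.10 ± 0.23 and Sox4 by 1.41 ± 0.21. The 3 that fell were the nuclear receptors of granulosa cells Nr5a1 (-0.84 ± 0.14) and Nr5a2 (-0.78 ± 0.13) and the coregulator Nrip1 (-0.67 ± 0.18). All of these were called, with adjusted p at most 0.00528.

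Peptide hormones of nerve cells formed one of the most strongly raised lists. Of its 35 genes only 25 passed the filter on low counts and were tested. Of these 16 were higher and 1 lower, or 16 and 4 with library totals. The median change was 3.95, or 3.78 with Npy, Cartpt and Vgf, which had no count at 0 h, set at their lower bounds. Genes silent at 0 h could pass the filter only through groups where they were higher. The counts and the median therefore hold for the members that passed and not for the whole list. Nts, the neurotensin gene, stood at 0.0781, 0.151 and 0.0437 CPM at 0 h and 739, 1102 and 729.6 CPM at 4 h. Adcyap1, which encodes the peptide PACAP, had 3 counts over the 0 h libraries and stood at 78.7, 110.3 and 65.1 CPM at 4 h. Penk, the enkephalin precursor, stood at 4.61, 5.04 and 7.52 CPM at 0 h and 150.0, 186 and 167 CPM at 4 h, and Tac2 rose by 6.24 ± 0.70. The PACAP receptor gene Adcyap1r1 stood at 1.83, 1.21 and 2.51 CPM at 0 h and 44.3, 63.6 and 44.6 CPM at 4 h, so ligand and receptor rose in the same libraries. Chgb (4.80 ± 0.28) and Scg2 (4.69 ± 0.52), proteins of dense-core granules, rose, whereas the processing enzyme Cpe (-0.08 ± 0.16) was not called and Scg5 fell (-1.78 ± 0.25). The called genes of this paragraph had adjusted p of at most 0.0184.

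The upstream bases of Nts (minus strand, chr10:102490487-102490638) and of Nmu, another neuropeptide gene among the 20 largest rises (minus strand, chr5:76363789-76363997, 8.74 ± 0.55), are printed with those of Tnfaip6, a hyaluronan-binding protein (plus strand, chr2:52037893-52038008, 10.58 ± 0.35). They are shown because each holds the AP-1 letters, and capitals mark the same letters as above.
Nts: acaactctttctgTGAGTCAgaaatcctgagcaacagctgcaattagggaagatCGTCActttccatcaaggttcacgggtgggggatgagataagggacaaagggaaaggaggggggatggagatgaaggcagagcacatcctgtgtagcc
Nmu: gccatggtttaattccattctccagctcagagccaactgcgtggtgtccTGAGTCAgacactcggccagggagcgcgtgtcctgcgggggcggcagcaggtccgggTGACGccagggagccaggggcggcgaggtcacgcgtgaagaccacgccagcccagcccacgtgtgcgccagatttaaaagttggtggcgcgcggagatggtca
Tnfaip6: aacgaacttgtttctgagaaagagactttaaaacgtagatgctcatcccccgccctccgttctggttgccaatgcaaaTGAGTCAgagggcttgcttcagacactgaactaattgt
The AP-1 letters begin at -207 in Nts, -171 in Nmu and -142 in Tnfaip6. Nts and Nmu also hold the core of the cAMP response element, at -166 and -114. The windows of Sult1e1, Npy and Sema4f held none of the cAMP element, AP-1 or TATA letters.

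The letters can be counted over all genes. A promoter entry existed for 13758 genes tested, for 438 of the 686 strong rises and for 121 of the 197 strong falls, and a gene counts where any of its windows holds the letters on either strand. The AP-1 letters were in 13.9% of the strong rises, 4.96% of the strong falls and 7.10% of all genes tested. The full cAMP response element TGACGTCA was in 3.88%, in 0 of 121 genes and in 3.09%, and its core, which the full element contains, in 29.2%, 14.9% and 31.1%. TATA boxes were in 19.9% of strong rises and 20.7% of strong falls beside 10.3% of all. The NR5A letters CAAGGTCA were in 1.14%, 4.13% and 1.51%, and the RUNX letters TGTGGT in 16.4%, 19.0% and 15.7%. Over all 32851 windows of the table the shares were 1.79% for the full cAMP response element, 20.8% for its core, 7.81% for AP-1, 1.56% for NR5A, 16.8% for RUNX and 13.6% for TATA. These are matches of letters, described without a test, and a match is not a site of binding.

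Of the machinery of regulated exocytosis, 7 genes of 24 were higher and 6 lower, with a median of -0.17; with library totals 5 were higher and 10 lower. Snap25, the SNARE protein of nerve endings, went from 0.254, 0.151 and 0.175 CPM to 462, 459 and 539 CPM. Vamp1 (1.50 ± 0.15) and Stx3 (1.10 ± 0.13) rose. Syt7, a calcium sensor of fusion, went the other way, from 409.8, 391 and 332 CPM to 136, 167 and 135 CPM, and the priming factors Unc13b (-0.67 ± 0.15) and Cplx2 (-0.74 ± 0.17) fell.

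Natriuretic peptide signalling makes the cGMP that granulosa cells pass to the oocyte, and its receptor genes moved in opposite directions. The ligand Nppc, C-type natriuretic peptide, fell from 140.2, 134 and 101 CPM to 12.2, 13 and 8.64 CPM, and its receptor Npr2 fell from 689, 593 and 612 CPM to 301, 307 and 319 CPM. Npr1, the receptor of atrial natriuretic peptide, went the opposite way, from 51.2, 47.2 and 47.8 CPM to 1431, 1855 and 1520.2 CPM (5.04 ± 0.40). Npr3, which clears natriuretic peptides, rose from 2.17, 2.62 and 2.1 CPM to 112, 193 and 130.4 CPM. The groups did not overlap for any of these 4 genes. The kinase gene Prkg2, a target of cGMP, stood at 0.917, 0.982 and 0.961 CPM at 0 h and 247, 205 and 261 CPM at 4 h (7.96 ± 0.30), while its relative Prkg1 was not called (-0.31 ± 0.45). Impdh1, of guanine nucleotide supply, fell (-0.93 ± 0.11) and Impdh2 did not change beyond the threshold (-0.12 ± 0.15, adjusted p = 0.529). Pde1a, which can break down cGMP, rose (1.68 ± 0.18) and Pde9a fell (-2.10 ± 0.33). In all 5 of 14 genes were higher and 5 lower. The called genes had adjusted p of at most 5.62e-05.

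Genes of estrogen synthesis mostly fell, and those of progesterone synthesis were more often higher than lower. Of 17 genes of progesterone synthesis 9 were higher and 4 lower, but 6 and 5 with library totals (median 0.10), and of 12 genes of estrogen synthesis and inactivation 2 were higher and 9 lower. Their medians were 0.41 and -0.86. The 2 estrogen genes that rose were Sult1e1 and Hsd17b7 (0.70 ± 0.12). Scarb1, which takes up cholesterol from lipoproteins, stood at 579.8, 619 and 547 CPM at 0 h and 2025, 2481 and 2127 CPM at 4 h. Fdx1, the electron donor of the side-chain cleavage enzyme, stood at 157, 172 and 137 CPM at 0 h and 1791, 3122 and 1988 CPM at 4 h, and Por, the reductase of microsomal enzymes, rose by 2.03 ± 0.14. Fdxr, the reductase of Fdx1, rose by 0.62 ± 0.15 and was not called with library totals (0.31). Among the 4 progesterone genes that fell was Hsd3b1, a 3-beta dehydrogenase, whose change is given above. Genes of 3-beta dehydrogenase and breakdown had 1 higher and 2 lower. Cholesterol delivery had 4 higher and 2 lower, and side-chain cleavage with its electron donors 4 higher and 0 lower. Hsd17b1, which makes estradiol from estrone, stood at 1477, 1334 and 1133 CPM at 0 h and 247, 307 and 238 CPM at 4 h. The estrogen receptors Esr1 (-1.74 ± 0.29) and Esr2 (-0.72 ± 0.15) fell too. Hsd17b4, an oxidising enzyme, was not called (-0.08 ± 0.10). The adjusted p of the called genes were at most 0.00268.

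Cholesterol synthesis and uptake had 12 of 27 genes higher and 5 lower, or 11 and 12 with library totals, with a median of 0.37. Cyp51 (1.68 ± 0.18), Sc5d (1.29 ± 0.10), Insig1 (1.17 ± 0.12) and Dhcr7 (1.05 ± 0.14), all known targets of the sterol sensor, rose. Soat1, which esterifies cholesterol for storage, fell from 759, 778 and 706 CPM to 453, 488 and 489 CPM.

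The matrix and protease lists rose in most of their called members. For the hyaluronan matrix 9 of 16 genes were higher and 2 lower (median 0.83), and for extracellular proteases and inhibitors 12 of 24 were higher and 4 lower (median 1.49). Cemip, which breaks hyaluronan down, rose (1.73 ± 0.27) beside the synthase Has1 (1.77 ± 0.30) and the receptor Cd44 (1.98 ± 0.25). Adamts9 stood at 36, 33 and 35.9 CPM at 0 h and 417, 464 and 416 CPM at 4 h, and Plau, the urokinase plasminogen activator, at 85.2, 70.6 and 76.9 CPM at 0 h and 618, 795 and 720.3 CPM at 4 h. Its receptor Plaur (5.35 ± 0.34) and its inhibitor Serpinb2 (6.49 ± 0.69) rose as well. Adamts5 (-1.96 ± 0.17) and Mmp11 (-0.96 ± 0.16) fell. Serpine2, an inhibitor abundant in granulosa cells, stood at 2612, 2549 and 2369 CPM at 0 h and 2916, 3287 and 3102 CPM at 4 h and was not called (0.31 ± 0.14). Some alternatives called it higher: DESeq2 (adjusted p = 0.0214), and edgeR with DESeq2 size factors (0.0456) or on only the 9 or the 6 mural libraries (0.015 and 0.0335).

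Prostaglandin genes did not move as a block, with 6 of 17 higher and 4 lower and a median of 0.20, which became -0.12 with library totals. Beside the synthase Ptgs2, its constitutive relative Ptgs1 rose (3.72 ± 0.25), as did Pla2g4a, which frees the substrate arachidonate (83.5, 80.0 and 73.1 CPM at 0 h and 353, 401 and 332 CPM at 4 h). The importer Slco2a1 rose from 13.9, 12.9 and 16.8 CPM to 155, 144 and 159 CPM. Ptges, the terminal prostaglandin E synthase, fell from 231, 205 and 219 CPM to 68.6, 77 and 70.8 CPM, and so did the degrading enzyme Hpgd (-1.49 ± 0.29). The receptor Ptger4 rose (2.10 ± 0.22).

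Genes of the actin cytoskeleton rose in 22 of 33 cases and fell in 1, with a median of 0.90; with library totals 19 rose and 2 fell. Rnd3, a small GTP-binding protein that loosens actin bundles, went from 2.13, 2.39 and 3.23 CPM to 225, 316 and 235 CPM. Tpm4, a tropomyosin, went from 118, 108 and 107 CPM to 700.0, 1054 and 715 CPM, and Vcl, which anchors actin at adhesions, rose by 1.74 ± 0.16. Tln1 (1.50 ± 0.16), Zyx (1.36 ± 0.18) and Actn1 (1.67 ± 0.11), also of adhesion sites, rose together with Lmna of the nuclear lamina (1.90 ± 0.11). Actb was not called (1154, 993 and 990.3 CPM at 0 h and 1179, 1285 and 1111 CPM at 4 h), and neither was Myh9 (0.26 ± 0.14). Myh10 was the 1 member that fell (-0.45 ± 0.16), a call that was lost without replicate 1 of 0 h or without replicate 2 or 3 of 4 h (adjusted p = 0.0649, 0.0643 and 0.0566). The smooth muscle genes Acta2 (-0.11 ± 0.26) and Cnn1 (0.72 ± 0.66) were not called.

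Integrins and luteal genes rose in 14 of 24 cases and none fell, with a median of 0.76; with library totals 13 rose and 2 fell. The collagen-binding integrin Itga2 went from 135, 124 and 108 CPM to 2148, 2692 and 2259 CPM. Itga5 (2.59 ± 0.16), Itga3 (1.97 ± 0.15) and Itgav (1.11 ± 0.19) rose, and their common partner Itgb1 rose by 0.82 ± 0.13. Itga6 (-0.22 ± 0.37), Itga9 (-0.04 ± 0.10) and Itgb5 (0.25 ± 0.15) were not called. Spp1, the integrin ligand osteopontin, stood at 1.03, 1.49 and 2.27 CPM at 0 h and 129.8, 148 and 133 CPM at 4 h. Rgcc (2.73 ± 0.16) and Parm1 (3.04 ± 0.16) also rose, and the prolactin receptor gene Prlr did not pass the threshold (0.15 ± 0.21). Of the basement membrane and collagen list 11 of 27 were higher and 1 lower, or 7 and 4 with library totals: Col4a1 (1.41 ± 0.20) and Col4a2 (1.38 ± 0.18) rose, Lox, which crosslinks collagen, rose from 8.55, 7.81 and 12.6 CPM to 75.6, 78.4 and 66.1 CPM, and Lama4 fell (-1.63 ± 0.16).

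Genes of amino acid uptake were raised. Of 17 amino acid transporters 12 were higher and none lower (median 0.85); with library totals 10 were higher and 2 lower. Slc7a11, which imports cystine, stood at 7.46, 8.99 and 13.7 CPM at 0 h and 602, 638 and 611 CPM at 4 h. Slc7a8, a carrier of neutral amino acids, stood at 316, 317 and 272 CPM at 0 h and 3773, 4175 and 3672 CPM at 4 h, and Slc6a6, the taurine transporter, at 234, 252 and 228 CPM at 0 h and 1126, 1263 and 1119 CPM at 4 h. Slc7a1, which carries arginine, rose by 2.33 ± 0.17 and Slc3a2, the heavy chain that several of them share, by 1.92 ± 0.12. Slc7a5 was not called (-0.19 ± 0.16). Odc1, the first enzyme of polyamine synthesis from ornithine, rose from 245, 215 and 185 CPM to 2438, 4267 and 2609 CPM, and Sat1, which starts their breakdown, by 2.69 ± 0.18. The polyamine list as a whole had 7 of 13 higher and 2 lower, but 2 and 3 with library totals.

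Glycolysis genes fell in 12 of 25 cases and rose in 5, with a median of -0.41. The rises included the entry step. The glucose transporter gene Slc2a1 went from 69, 64.3 and 62.2 CPM to 273, 398 and 324 CPM and hexokinase Hk2 from 55.4, 53.7 and 49 CPM to 181, 229.7 and 176 CPM. Below that step Pfkl stood at 224, 184 and 181 CPM at 0 h and 60.9, 63.6 and 62.1 CPM at 4 h, and Pfkm at 72.5, 62.9 and 63 CPM at 0 h and 13, 12.1 and 15.7 CPM at 4 h. The third phosphofructokinase gene, Pfkp, rose (1.24 ± 0.17). Tpi1 (-1.02 ± 0.18), Eno1 (-1.03 ± 0.19) and Pgam1 (-0.55 ± 0.17) fell, as did Slc16a3, which exports lactate (-2.25 ± 0.20), and Pdk1, which inhibits the pyruvate dehydrogenase complex (-2.44 ± 0.16). Pkm (-0.30 ± 0.16) and Ldha (-0.20 ± 0.20) were not called. The called genes had adjusted p of at most 0.0135. With library totals edgeR called both Pkm and Ldha lower (adjusted p = 0.000334 and 0.0126). On only the 9 or the 6 mural libraries it also called Pkm lower (0.0293 and 0.0458).

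Antioxidant genes rose in 13 of 25 cases and fell in 4 (median 0.33), and 11 rose and 8 fell with library totals. The regulator Nfe2l2 (1.58 ± 0.16) and its textbook targets Srxn1 (5.05, 6.65 and 6.25 CPM at 0 h and 149, 330.5 and 181 CPM at 4 h), Gclc, the rate-limiting enzyme of glutathione synthesis (109, 108 and 98.8 CPM at 0 h and 630.2, 768 and 677 CPM at 4 h), Txnrd1 (1.16 ± 0.13) and Hmox1 (1.43 ± 0.18) were among the rises. Nqo1, another such target, was not called at 1.51 and 0.735 CPM on average (-1.04 ± 0.42, adjusted p = 0.054), and 7 alternatives called it lower, with adjusted p from 0.0114 to 0.0473. Catalase, Cat, fell (-1.02 ± 0.14). The metal-binding proteins Mt2, from 3.24, 3.65 and 4.98 CPM to 125, 136 and 137 CPM, and Mt1 (2.41 ± 0.14) rose as well. They belong to the list of glucocorticoid-responsive genes, in which 8 of 14 were higher and 2 lower and Tsc22d3, a common marker of that hormone, fell (-0.56 ± 0.18). That fall was not called without replicate 2 of 4 h (adjusted p = 0.118).

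Genes that define granulosa cells mostly fell where they were called. On that list 11 of 19 were lower and 1, Zfpm2, a cofactor of GATA proteins, was higher (1.04 ± 0.11), with a median of -0.84. Foxl2, which keeps ovarian cells from turning to a testis fate, fell from 448, 418 and 341 CPM to 106, 89.1 and 93.7 CPM. Gata4 fell from 465, 428 and 369 CPM to 138, 147 and 134 CPM. Gata6 was not called (-0.37 ± 0.18). However, edgeR called Gata6 lower with library totals (adjusted p = 0.00305) and on only the 9 or the 6 mural libraries (0.00145 and 0.0049). Amhr2, the receptor of anti-Müllerian hormone, fell (-1.25 ± 0.19). Inha (11234, 9940.4 and 9056 CPM at 0 h and 7787, 9691 and 8033 CPM at 4 h) and Kitl (-0.13 ± 0.23) were not called. This list shares genes with the granulosa markers and with the estrogen list, so the 3 are not independent.

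Activin, inhibin and BMP signalling had 17 of 42 genes higher and 8 lower, or 13 and 15 with library totals. Against the fall of Inhbb, the alternative subunit Inhba was not called (7510.2, 6712 and 5592 CPM at 0 h and 4867, 8068 and 4736 CPM at 4 h). The antagonist Bmper rose from 28.4, 25.4 and 25.3 CPM to 571, 710.0 and 609 CPM, while the antagonist Grem1 fell from 588, 543 and 476 CPM to 156, 261 and 155 CPM. Bmp2 (2.26 ± 0.44) and Tgfb1 (2.13 ± 0.15) rose, as did the receptor Tgfbr1 (1.68 ± 0.18), and the receptor Bmpr1b fell (-1.35 ± 0.13). Of the BMP target genes Id1 (-1.45 ± 0.18) and Id3 (-1.03 ± 0.17) fell and Id2 (2.43 ± 0.23) rose.

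Both hedgehog ligands that granulosa cells send to the theca fell. Ihh went from 385, 349.6 and 272 CPM to 57.6, 72.7 and 61.5 CPM and Dhh from 72.3, 63.4 and 59.1 CPM to 12.1, 12.8 and 12 CPM. The inhibitor Hhip rose from 8.41, 7.2 and 10.4 CPM to 78.9, 77.4 and 103 CPM. Gli3 rose (2.53 ± 0.25), and Gli1 (-1.16 ± 0.34) and Gli2 (-0.79 ± 0.24) fell. Without replicate 3 of 0 h the falls of these last were not called (adjusted p = 0.0699 for Gli1 and 0.06 for Gli2). Ptch1, receptor and target, was not called (0.04 ± 0.19, adjusted p = 0.891). In all 2 of 9 were higher and 5 lower. Theca cells respond to these ligands. The summed theca markers without Star were lower in the same 4 h libraries, at 239 ± 13.5 CPM against 526 ± 53.1 CPM (SD, n = 3). These markers include Ptch1 and Gli1, so the sum is not independent of the genes above. They also include Aldh1a1, which went from 269 to 76.2 CPM on average. The part of theca cells in these values was not tested.

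Where cell cycle genes were called, most fell. For S phase 14 of 26 were lower and 2 higher (median -0.42), and for mitosis 11 of 24 were lower and none higher (median -0.34). With library totals 21 and 15 were lower, with medians of -0.74 and -0.66. With the scaling used here none of the S phase genes and only 1 gene of mitosis, Ccnb2, fell at least 2-fold. Mcm3, of the replicative helicase, stood at 235, 190.2 and 170.4 CPM at 0 h and 112, 107 and 109 CPM at 4 h, and Ccnb2, a mitotic cyclin, at 108, 87.5 and 78.8 CPM at 0 h and 32, 33.4 and 35.1 CPM at 4 h. Pcna (0.85 ± 0.17) rose, and Ccnb1 (0.12 ± 0.17) and Cdk1 (0.17 ± 0.11) were not called. Ccnd2, the D-type cyclin that drives granulosa cell division, fell from 609, 589 and 485 CPM to 222, 252 and 221 CPM, and Cdk6 fell (-1.32 ± 0.18). The inhibitor Cdkn1a rose from 8.24, 10.3 and 7.12 CPM to 61.4, 89.4 and 68 CPM, with Btg1 (3.12 ± 0.28) and Gadd45b (2.61 ± 0.18), while Cdkn1b was not called (-0.19 ± 0.13). However, edgeR called Cdkn1b lower with library totals (adjusted p = 0.00122) and on only the 9 or the 6 mural libraries (0.0476 and 0.0345). Over the list of 20 G1 cyclins and cell cycle inhibitors 6 were higher and 5 lower, or 5 and 7 with library totals.

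The circadian clock was split: 6 of 17 genes were higher and 7 lower, or 4 and 8 with library totals. The output genes Ciart, from 21.2, 17.9 and 18.1 CPM to 1.33, 0.571 and 1.12 CPM, Dbp (-2.64 ± 0.32) and Tef (-1.83 ± 0.16) fell, with Per2 (-1.76 ± 0.19), Per3 (-2.05 ± 0.46) and Nr1d2 (-1.46 ± 0.14). Per1 rose from 67.2, 72.7 and 59.9 CPM to 253, 282 and 248 CPM, and Nfil3 (3.28 ± 0.27), Cry2 (1.68 ± 0.16) and Clock (1.05 ± 0.07) rose. The hour of collection is not given, so the time since hCG and the time of day cannot be told apart here.

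Ribosomal proteins and ribosome biogenesis had 23 of 30 genes higher and none lower at a median of only 0.40, and 5 higher with library totals. Of 13 mitochondrially encoded transcripts 4 were higher with the trimmed mean of M values and none with library totals, at medians of 0.48 and 0.16. Mitochondrial transcripts took 4.88, 5.02 and 6.08% of the counts at 0 h and 5.24, 5.33 and 7.57% at 4 h. Nuclear genes of the respiratory chain had 5 of 22 higher and 4 lower, or 1 and 12 with library totals. Heat shock proteins rose in 10 of 14 cases, or 7 with library totals, with Hsph1 at 164, 132 and 140.3 CPM at 0 h and 409, 456 and 348 CPM at 4 h. Hspa1a (-2.63 ± 0.34) and Hspa1b (-2.28 ± 0.30), near-identical copies that unique mapping may split, fell. In the unfolded protein response 5 of 25 were higher and 7 lower (2 and 11 with library totals), and Hspa5, its main chaperone, was not called (-0.05 ± 0.16).

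**Figure D4:**
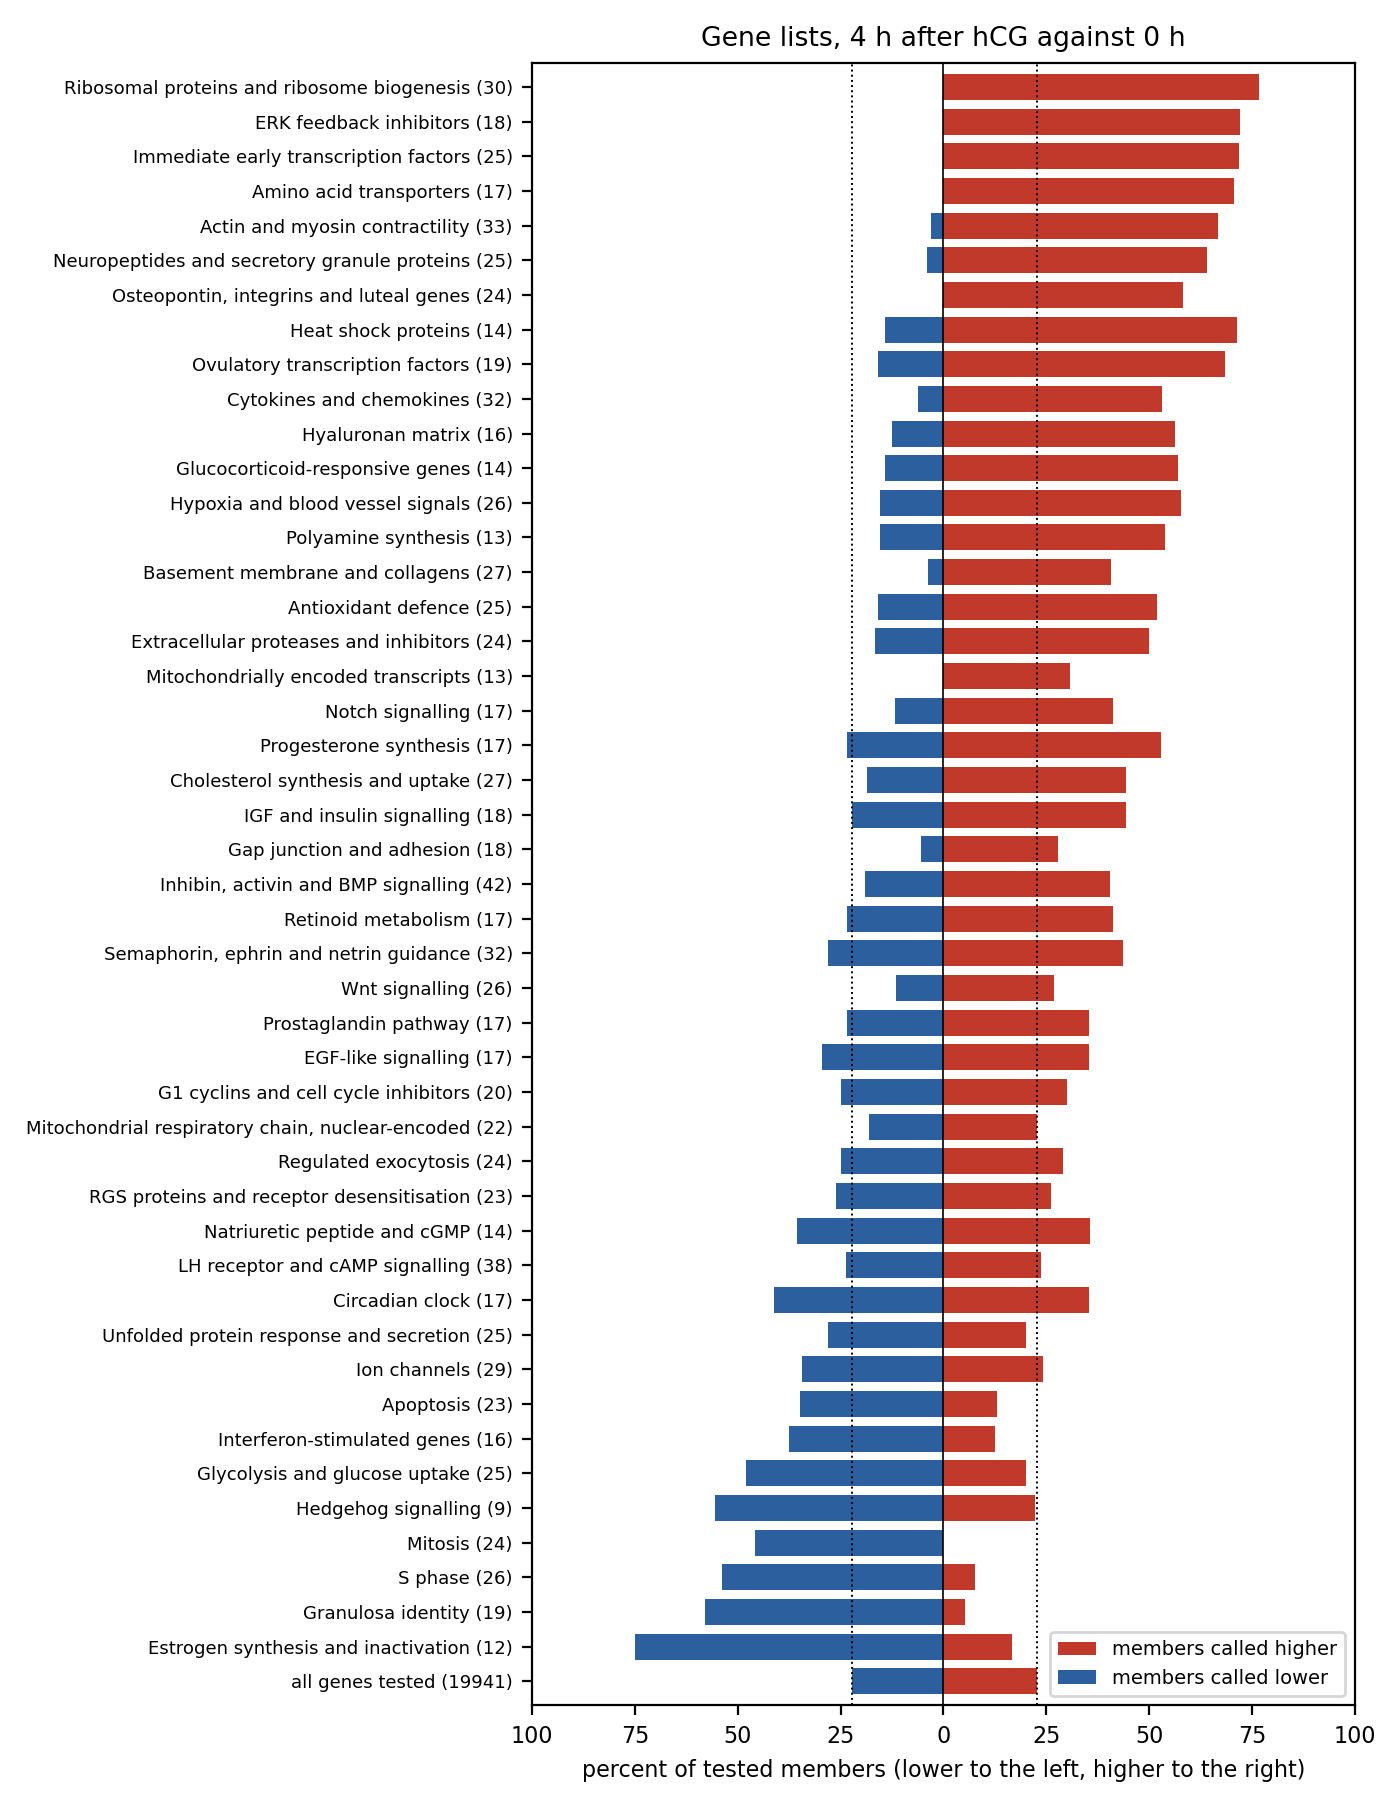
Percent of the tested members of 46 gene lists called higher (red, to the right) and lower (blue, to the left) at 4 h against 0 h, with the number tested in brackets. Dotted lines and the lowest bar give the same for all 19941 genes tested, 22.8% higher and 22.3% lower. ERK feedback inhibitors had 13 of 18 higher and none lower, and estrogen genes 9 of 12 lower.

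The lists of hypoxia and vessel signalling and of cytokines and chemokines had more rises than falls. On the first 15 of 26 genes were higher and 4 lower (median 1.0). On the second 17 of 32 were higher and 2 lower (median 1.49), and these 32 are the members of 36 that passed the filter. With library totals 12 and 8 of the first list and 16 and 4 of the second were higher and lower. By role 8 secreted vessel signals were higher and 2 lower, and 5 cytokines and 2 chemokines were higher and none lower. The other rises were in receptors, signalling genes and hypoxia targets. The neutrophil and red blood cell markers rose in the same libraries, as given above, and their part in these counts was not tested. Il6 rose to 1.33, 2.32 and 1.88 CPM and Il11 to 0.632, 3.27 and 1.32 CPM. Among receptors, Cxcr4, the receptor of Cxcl12, stood at 2.38, 3.22 and 2.97 CPM at 0 h and 351, 369 and 375 CPM at 4 h, and Il1r1 at 49.8, 50.3 and 44.6 CPM at 0 h and 399, 472 and 365 CPM at 4 h. Vegfa rose from 161, 169 and 138 CPM to 349, 369 and 323 CPM and its receptor gene Kdr, an endothelial marker, from 5.62, 6.67 and 10.7 CPM to 32.6, 38.3 and 34.8 CPM. Pecam1, another endothelial marker, was not called (-0.04 ± 0.51). Of known hypoxia targets Egln3 rose from 3.04, 6.37 and 2.27 CPM to 66.2, 105 and 69.6 CPM while Bnip3 fell from 94.8, 84.9 and 76.9 CPM to 13.8, 9.77 and 10.2 CPM. Edn2, an endothelin, rose from 0.0976, 0.201 and 0.35 CPM to 2.46, 5.58 and 3.55 CPM (4.16 ± 0.50).

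Most of the strong mural changes were shared in direction with cumulus cells, whose libraries are other samples. The titles of those libraries name cumulus cells, while their cell type field, where filled, names mural granulosa cells. The titles were followed. Cumulus cells had 4987 genes called higher (25%) and 4545 called lower (22.8%) from 0 to 4 h. Of the 686 strong mural rises 566 (82.5%) were called higher in cumulus cells and 7 lower, and they made up 11.3% of the genes called higher there. Of the 197 strong falls 118 (59.9%) were called lower in cumulus cells and none higher, 2.60% of the genes called lower there. The test of the difference between the changes called 2800 genes, 14% of those tested; it called 1564 in a fit of only the 12 libraries of 0 and 4 h, and 4272 without replicate 2 of the cumulus libraries of 4 h. In 1448 of them the mural change lay above the cumulus change and in 1352 below. The 15 oocyte markers summed to between 438 and 7747 CPM in the cumulus libraries of 0 and 4 h, against 162 to 664 CPM in the mural libraries, and their part in these differences was not tested.

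Some genes rose in mural cells and fell in cumulus cells. Rims4, a presynaptic scaffold protein, stood at 37.7, 32.8 and 36.8 CPM at 0 h and 309, 358 and 291 CPM at 4 h in mural cells and went from 49.7 ± 6.66 to 15.7 ± 4.11 CPM in cumulus cells, a difference between log2 changes of 4.82 ± 0.22. Abcc2, a drug and conjugate exporter, rose in mural cells from 10.2, 8.71 and 9.4 CPM to 87.5, 67.5 and 85 CPM and fell in cumulus cells from 12.7 ± 3.56 to 2.52 ± 1.08 CPM. Tnfaip3, an inhibitor of NF-kappaB, and Slc27a3, of the family of fatty acid transport proteins, did the same, with differences of 4.53 ± 0.54 and 4.07 ± 0.24. Tac1, the substance P gene, rose in mural cells (3.95 ± 0.33) and was not called in cumulus cells (-0.38 ± 0.29). Snap25 and Pthlh, the gene of parathyroid hormone-related protein, rose in both, more in mural cells (differences 4.43 ± 0.51 and 5.31 ± 0.62). These 7 genes had adjusted p of at most 2.63e-05 for the difference.

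Others rose far more in cumulus cells. Flnc, a filamin of actin networks, stood at 6.32, 7.03 and 11 CPM at 0 h and 88.2, 101 and 97.4 CPM at 4 h in mural cells and at 0.171 ± 0.136 and 96.6 ± 28.1 CPM in cumulus cells (cumulus change 9.02 ± 0.37). Aldh1a3, a retinoic acid-making enzyme, rose by 1.45 ± 0.26 in mural and 7.01 ± 0.35 in cumulus cells. Procr, the protein C receptor, rose by 5.90 ± 0.34 and 9.64 ± 0.41, and Clcf1, a cytokine of the IL-6 family, by 4.23 ± 0.26 and 8.66 ± 0.35. Adjusted p for these differences were at most 7.70e-05.

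**Figure D5:**
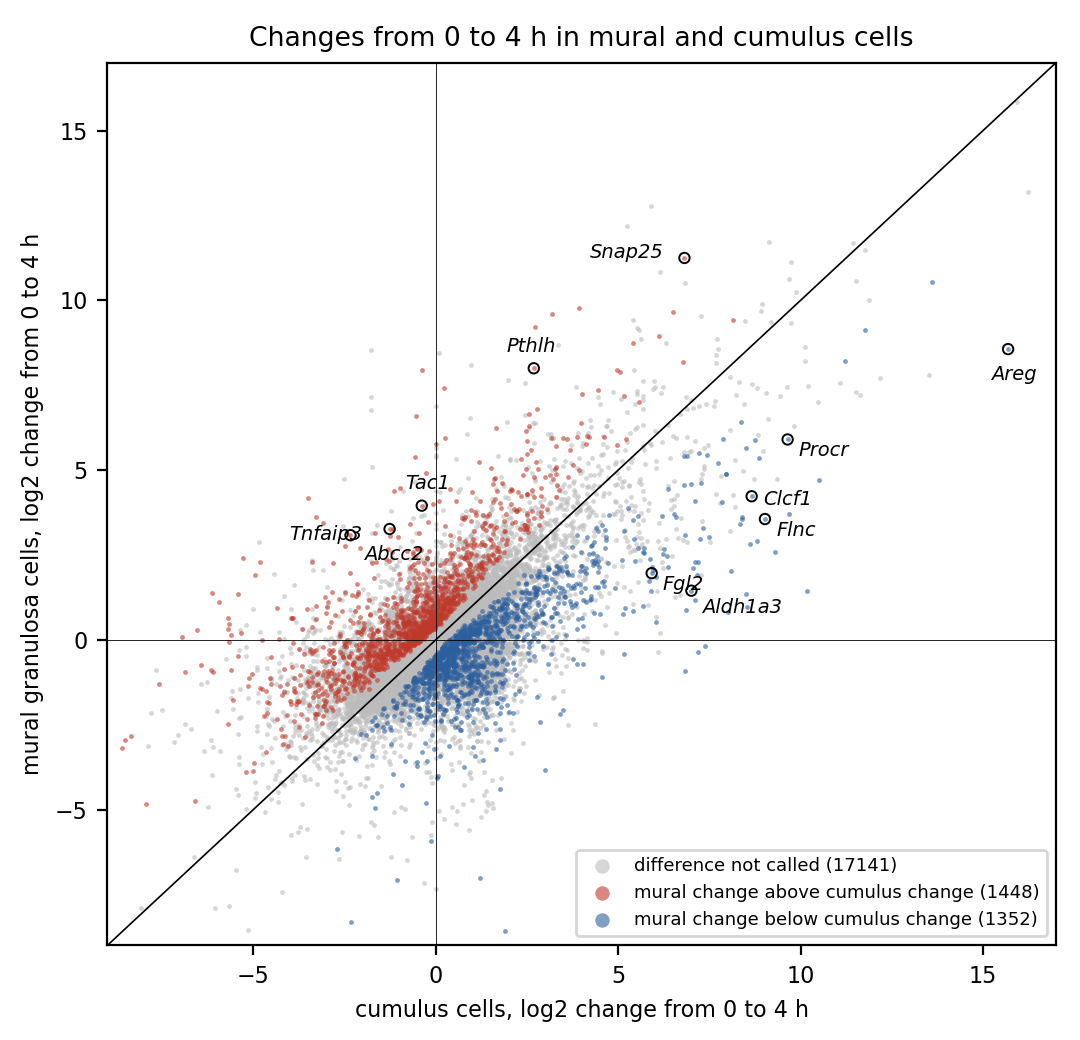
Log2 change from 0 to 4 h after hCG in cumulus cells (horizontal axis) and mural granulosa cells (vertical axis) for 19941 genes, where points are genes and the diagonal marks equal change. Genes whose changes differ by the test are red where the mural change is above (1448) and blue where it is below (1352). Areg has no count in cumulus cells at 0 h, so its place on the horizontal axis depends on the small count that the fit adds.

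Many of the early rises had receded by 12 h. Of the 686 genes chosen for at least 8-fold rises at 4 h, 163 had a higher mean at 12 h than at 4 h, 481 lay between their 0 h and 4 h means and 42 were at or below the 0 h mean. For 268 the 12 h mean was more than 4-fold below that of 4 h. Sult1e1 was at 5.69 ± 0.817 CPM at 12 h, Nts at 21.9 ± 3.78 CPM and Tac1 at 0.37 ± 0.113 CPM, while Ybx1 was at 4086 ± 466 CPM and Sprr2g at 35.8 ± 5.34 CPM. Among falls Jakmip3 was back at 250.0 ± 26.2 CPM and Inhbb stood at 464 ± 149 CPM. Since the 4 h values chose these genes, the counts are a description.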

How the data were processed

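RNA of mural granulosa cells was sequenced from 3 libraries at 0 h and 3 at 4 h after hCG, prepared with a stranded mRNA kit per the labels' protocols. The deposited file holds whole-number counts of uniquely mapped reads per gene, which the authors made with CLC Genomics Workbench at default parameters per the series' design text, on GRCm38 per the submitters' processing notes. The sources used here do not give its version, the annotation or the strand setting, so overlapping and antisense genes cannot be told apart, and near-identical copies lose reads to unique counting. No count stood in a row without a gene name.

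From these counts edgeR 4.0.16 in R 4.3.3 kept 19941 genes (filterByExpr, minimum count 10; 99.96% of reads), scaled the libraries by the trimmed mean of M values and fitted group means over all 18 libraries, which then share 1 estimate of the spread, with the robust quasi-likelihood fit. It tested 4 h against 0 h in mural cells, in cumulus cells, and the difference of these changes. P-values were adjusted by the Benjamini-Hochberg method over all genes tested, at a threshold of 0.05. The SE is the log2 change divided by the square root of its F statistic. Library totals of 32211630 to 47919446 counts put a floor of 3 counts at 0.0585 to 0.0999 CPM; exact intervals and floors cover counting error only. The script was tested on simulated data. CPM of 1 gene come from scaled totals.

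Alternatives were other scalings, DESeq2 1.42.0, limma-voom 3.58.1, other filters, fewer libraries in the fit, a replicate block and leaving out each library. The members and the 46 gene lists were chosen with earlier results of these data known. Genes are named by a rule: the 20 largest rises and falls with at least 20 CPM and no overlap, the 15 largest gains and losses in CPM, up to 5 called members of each list by fold with at least 5 CPM and 2 not called by level, the 10 largest mural-cumulus differences in each direction with at least 20 CPM, the cell type markers, and genes at 0 counts at 0 h that reached 5 CPM. Others of a list were chosen after their values were seen, and some genes the rule gives are not reported here. Gene positions are from GENCODE M21, and promoter sequences from RefSeq on GRCm38.p6.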

Additional observations from a re-analysis of the deposited data

Results flagged for a closer look

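The change from 0 to 4 h differed between mural granulosa and cumulus cells, by edgeR's test of the difference itself, in 2800 genes. The 20 with the largest differences that reach 20 CPM are given as mural minus cumulus log2 change ± SE. Above the cumulus change lay Abcc2 (5.42 ± 0.38), Pthlh (5.31 ± 0.62), Rims4 (4.82 ± 0.22), Tnfaip3 (4.53 ± 0.54), Snap25 (4.43 ± 0.51), Tac1 (4.34 ± 0.43), Slc27a3 (4.07 ± 0.24), the neuregulin Nrg3 (4.04 ± 0.51), Brinp3 (4.02 ± 0.29) and Samd5 (4.0 ± 0.40).

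Below it lay Areg (-7.12 ± 1.58), Aldh1a3 (-5.56 ± 0.43), Flnc (-5.46 ± 0.44), the lipase Lipg (-4.55 ± 0.39), the acetylcholine receptor subunit Chrna4 (-4.47 ± 0.58), Clcf1 (-4.43 ± 0.45), Fgl2 (-3.95 ± 0.50), the transcription factor Creb3l1 (-3.75 ± 0.32), Procr (-3.74 ± 0.50) and the collagen gene Col15a1 (-3.63 ± 0.42). Areg had no count in cumulus cells at 0 h, so its difference depends on the small count that the fit adds. It had an adjusted p of 0.007, against 0.0645 without replicate 3 of the cumulus libraries of 4 h and 0.176 in limma-voom. For the other 19 genes the adjusted p was at most 7.70e-05.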

How the results depend on the processing

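The numbers of genes called higher and lower moved most with the scaling, from 4549 and 4442 to 2793 and 6821 with library totals. With DESeq2 size factors they were 4847 and 4272, in DESeq2 5012 and 4510, in limma-voom 4693 and 4580, without a filter 4214 and 4155, at a minimum count of 50 4084 and 4657, and with only the 9 or the 6 mural libraries 5498 and 5679 or 5137 and 5478. Leaving out 1 library gave 3693 to 3923 higher and 3547 to 4388 lower. The number of genes whose mural and cumulus changes differed, 2800, was 1564 with only the 12 libraries of 0 and 4 h and 2037 to 4272 with 1 library left out, highest without replicate 2 of the cumulus libraries of 4 h; the cause was not tested. Deviations of libraries with equal replicate numbers had correlations of 0.13, -0.03 and 0.13, and those with unequal numbers -0.15 to 0.05. The deviations of 3 libraries in a group depend on each other, so these values do not decide whether libraries are paired. A replicate block gave 4664 higher, 4527 lower and 2934 differing, and of the named genes it ended only the call of Snap23. With library totals these list medians turned from above to below 0: prostaglandin (-0.12), gap junction (-0.13), cell cycle regulators (-0.10), polyamines (-0.014), guidance (-0.21), retinoids (-0.0076), cAMP (-0.30), EGF (-0.22), inhibin and BMP (-0.18), Wnt (-0.14), unfolded protein response (-0.27) and RGS proteins (-0.23). That of gap junctions ranged from -0.0098 to 0.31 with 1 library left out, lowest without replicate 1 of 0 h. Of 302 genes named, 11 lost a call under some alternative and none turned direction while called: Egr1, Nr4a2, Fdxr, Gli1, Gli2, Myh10 and Tsc22d3, given above, Snap23 at the threshold, and Cartpt, Chrna4 and Lipg. Of the 40 named genes not called, 21 were called under some alternative. Among them, fits of only the 9 or the 6 mural libraries called Lhcgr, Gata6, Pkm and Cdkn1b lower. The same fits called Serpine2, Myh9, Lrig1 and Fosl2 higher. Depth limits genes under about 0.1 CPM, whose fitted changes depend on the small count that the fit adds.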

Other observations

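Genes of the Notch, Wnt and guidance lists moved in either direction. In the Notch pathway 7 of 17 genes were higher and 2 lower, with a median change of 0.33; with library totals 7 were higher and 3 lower. The ligand Jag1 stood at 9.29, 10.2 and 13.1 CPM at 0 h and 181, 268 and 206 CPM at 4 h and the receptor Notch2 at 129.9, 107 and 118 CPM at 0 h and 796, 771 and 699.8 CPM at 4 h. Of the target genes Hey1 (4.35 ± 0.31) and Hes1 (2.37 ± 0.19) were higher, whereas Hey2 went from 155, 145 and 125 CPM to 35.6, 35.7 and 35.3 CPM. In Wnt signalling 7 of 26 genes were higher and 3 lower, or 6 and 8 with library totals: Wnt11 stood at 0.039, 0.0504 and 0.503 CPM at 0 h and 27.3, 50.3 and 28.7 CPM at 4 h, the receptor Fzd1 at 17.9, 14.8 and 15.2 CPM at 0 h and 199, 189 and 188 CPM at 4 h, and the secreted antagonist Sfrp4 at 62.4, 173 and 152 CPM at 0 h and 1744, 2078 and 2082 CPM at 4 h. Among semaphorins, ephrins and other guidance genes 14 of 32 were higher and 9 lower, or 13 and 11 with library totals. Efnb2 (5.23 ± 0.26), Sema3a (4.23 ± 0.22) and the receptors Epha4 (2.98 ± 0.22) and Robo2 (180.4, 171 and 141 CPM at 0 h and 1306, 1409 and 1241 CPM at 4 h) were higher. Sema7a fell from 875, 792 and 798 CPM to 143, 128 and 145 CPM, and its receptor gene Plxnc1 from 1033, 915 and 901 CPM to 211, 242 and 189 CPM, so that a ligand and its receptor fell in the same libraries.

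Genes that shape the receipt of hormone and calcium signals were also split. Of 23 RGS and receptor desensitisation genes 6 were higher and 6 lower, or 4 and 10 with library totals. Rgs2 stood at 194, 196 and 221 CPM at 0 h and 1397, 1928 and 1392 CPM at 4 h, while Rgs3 (-2.10 ± 0.23) and Rgs11 (-1.53 ± 0.19) fell. Of 29 ion channel genes 7 were higher and 10 lower, or 4 and 11 with library totals: the calcium channel genes Cacna1a, from 131, 114 and 107 CPM to 12.8, 9.14 and 13.5 CPM, and Cacna1d (-2.01 ± 0.21) fell with the potassium channel Kcnh2 (-2.40 ± 0.28), and the potassium channel Kcnk5 rose (2.75 ± 0.21). In IGF and insulin signalling 8 of 18 were higher and 4 lower, or 8 and 6 with library totals. The receptor Igf1r stood at 364, 329 and 341 CPM at 0 h and 1112, 1295 and 1095 CPM at 4 h and the protease Pappa, which frees IGF from its binding proteins, at 120.1, 114 and 75.3 CPM at 0 h and 329, 436 and 338 CPM at 4 h. In apoptosis 3 of 23 were higher and 8 lower: Mcl1 rose (0.96 ± 0.19), its fellow survival gene Bcl2l1 fell (-1.29 ± 0.25), and the receptor Tnfrsf12a went from 3.02, 4.05 and 3.74 CPM to 195, 277 and 199.6 CPM. Of 16 interferon-stimulated genes 2 were higher and 6 lower (median -0.68), with Stat2 (-1.01 ± 0.16) and Bst2 (-0.96 ± 0.12) falling. In retinoid metabolism 7 of 17 were higher and 4 lower. The dehydrogenase gene Adh7 stood at 0.546, 0.403 and 0.131 CPM at 0 h and 70.0, 80.3 and 57.4 CPM at 4 h, and Aldh1a1, which makes retinoic acid, at 267, 243 and 296 CPM at 0 h and 64.7, 82.3 and 81.4 CPM at 4 h. Aldh1a1 is also one of the theca markers above. Of 18 gap junction and adhesion genes 5 were higher and 1, Gja1, was lower, or 3 and 3 with library totals. The called genes of both paragraphs had adjusted p by edgeR's quasi-likelihood test of at most 0.000464.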
